A study of Homo sapiens with 4 samples.

Results

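Complement is a cascade of plasma and tissue proteins that marks and lyses microbes. The classical arm starts with the proteases C1r and C1s. Activated by C1r, C1s cleaves C4 and C2 to form an enzyme that splits C3. The alternative arm uses factor B in place of C2, and both arms end in the membrane attack complex. Host cells are protected by inhibitors in the fluid phase, such as the C1 inhibitor SERPING1 and the protease factor I, and by inhibitors on the cell membrane, such as CD55 and CD59. The intestinal epithelium makes many of these proteins itself, and IFNγ is a known inducer of complement synthesis in several cell types.

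The 9 genes described here are 5 components of the cascade (C1R, C1S, C2, C3 and CFB) and 4 regulators (SERPING1, CFI, CD55 and CD59). They were taken by symbol from the 37515 genes of an RNA-seq count table, and each symbol matched 1 Ensembl gene. All 9 had counts and passed the filter on low counts. SERPING1 passed it only through the IFNγ libraries, where it was high.

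The table holds 4 libraries of wild-type Caco-2 cells, a human colorectal carcinoma line that forms an enterocyte-like layer. The cells were grown on Transwell inserts. In 2 libraries (replicates 1 and 2) they were unstimulated and taken at 0 h, and in the other 2 they had received 60 ng/ml IFNγ in the basal compartment for 3 h. No unstimulated library at 3 h was analysed here, so the effect of IFNγ and that of the 3 h cannot be told apart. The labels do not say whether the duplicates were separate cultures, so the spread between these libraries may be technical. The p-values measure this spread, with each gene's own value moderated by that of the other tested genes. Fewer cells of a type and less RNA per cell cannot be told apart in such bulk libraries. As a model, Caco-2 is a single tumour line.

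The libraries held 7171455 to 10365346 counts. Levels are given as CPM, the count scaled to the library's sum over the tested genes after TMM normalization, and 1 CPM stood for 7.14 to 10.3 counts. A gene was called when its Benjamini-Hochberg adjusted p-value over all 14820 tested genes, from edgeR's quasi-likelihood test, was under 0.05 and its log2 fold change was above 1 in size. As a check of the labels, all 10 genes of a list of IFNγ-induced genes had a positive log2 fold change and 8 of them were called. Over all tested genes 49.4% had a positive value and 2.88% were called higher. NLRC5, PSMB9 and SOCS1 of that list passed the filter only through the IFNγ libraries, so their rise is no independent check. IRF1, a transcription factor that IFNγ induces, had 198 and 144 counts without and 12348 and 7949 counts with IFNγ. Of 10 enterocyte markers 9 were tested, with 11292 to 18632 counts of VIL1 per library. CDX2, an intestinal transcription factor in that list, was called higher with a log2 fold change of 1.20. PTPRC, which marks leukocytes, had 2 counts in 1 IFNγ library and 0 in the other 3. The summed level of the 8 leukocyte markers was 9.25 and 9.39 CPM without and 11.2 and 13.1 CPM with IFNγ, and its part in the results was not tested. CD14 of this list had 3.51 and 4.76 CPM without and 5.74 and 8.87 CPM with IFNγ and was not called. LYZ, with 12 to 26 counts, and CD4, with 8 to 27, were tested too and had negative log2 fold changes. COL1A1 of the 6 fibroblast markers had 638 to 1842 counts, more in replicate 1 of either condition. The others on that list were far lower, with 53 to 117 counts of COL3A1, 30 to 68 of PDGFRB and 12 to 27 of LUM. COL1A2 and DCN had at most 1 count in any library. Caco-2 cells are known to express liver genes. All 8 genes of a hepatocyte list were tested, with 1 called lower, against 4.40% of all tested genes. The called gene was ALB, with 204 and 137 counts without and 103 and 57 with IFNγ. Its log2 fold change was -1.12 (adjusted p = 0.00831 from edgeR). FGB, named after its values were seen, had -0.76 (adjusted p = 0.0233 from edgeR), and the median of the hepatocyte list was 0.08. The other 6 genes of that list had positive log2 fold changes, up to 0.24 for SERPINA1. The part of these liver genes in the results was not tested.

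After 3 h of IFNγ 2 of the 9 genes were called higher, SERPING1 and C1R, which encode the C1 inhibitor and one of the proteases that it blocks. The other 7 did not pass the test in either direction. Among all tested genes 2.88% were called higher and 4.40% lower, which gives the background for 2 of 9 higher and 0 of 9 lower. SERPING1 was tested only through its IFNγ libraries, and the 9 genes were chosen with earlier results known. No excess over the background can therefore be read from these counts. Over the 9 genes the log2 fold change had a median of 0.18, against -0.00735 over all tested genes. Both IFNγ libraries lay above both unstimulated libraries for C1R, C1S, C2, C3 and SERPING1, and below them for CFI. Such a separation was common, with 31.6% of the tested genes above and 30.8% below, so it says little about a single gene.

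**Figure D1:**
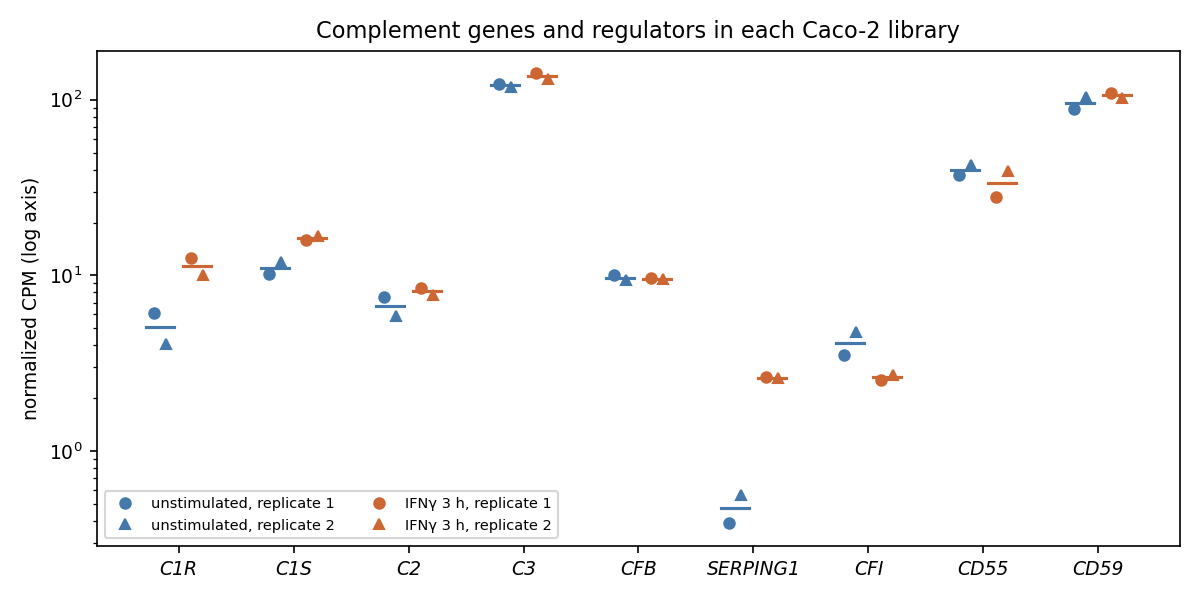
Normalized CPM (log axis) of the 9 genes in each library, with circles for replicate 1, triangles for replicate 2 and a bar at the mean of each group of 2. SERPING1 stood at 0.39 and 0.56 CPM without and 2.63 and 2.59 CPM with IFNγ, and C1R separated as well, while the points of CFB, CD55 and CD59 overlapped between the groups.

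The initiating proteases C1r and C1s circulate as a complex with C1q, and C1r activates C1s. C1R (ENSG00000159403) lies on the minus strand of chromosome 12 of GRCh37 from 7187513 to 7245203. Its counts were 63 and 29 without IFNγ and 129 and 74 with it. Both IFNγ libraries were thus above both unstimulated ones, and replicate 2 was the lower in each group. The level was 5.10 ± 1.46 (SD, n = 2) CPM before and 11.3 ± 1.73 (SD, n = 2) CPM after IFNγ. This was a 2.19-fold rise, or 1.13 on the log2 scale (SE 0.271, 95% confidence interval 0.50 to 1.77, adjusted p = 0.0265). The call of C1R rested on single libraries, since it was lost without unstimulated replicate 2 (0.90, adjusted p = 0.055) and without IFNγ replicate 1 (0.95, adjusted p = 0.0826). With the trend of GC content and exon length removed the adjusted p-value was 0.0338 but the log2 fold change 0.92, under the fold change threshold. Of its 4696 exon bases 14.3% overlap C1RL, a related protease gene on the same strand, whose own log2 change was 0.07 (adjusted p = 0.772).

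C1S (ENSG00000182326) lies on the plus strand of the same chromosome, from 7096351 to 7178336. It had 105 and 85 counts without IFNγ and 164 and 123 with it, or 10.2 and 11.9 CPM against 15.95 and 16.8 CPM. Both IFNγ libraries were the higher ones, by more than the difference between the duplicates. The log2 fold change was 0.57 (95% confidence interval 0.15 to 0.99, adjusted p = 0.0647 from edgeR), so C1S did not pass the test. The adjusted p-value was under 0.05 with upper quartile scaling (0.0477), the replicate block (0.0259), GC and length removed (0.0403) and both of the last together (0.00415), where only the fold change threshold kept C1S from a call. Its interval overlaps that of C1R, and whether the changes of C1R and C1S differ was not tested. Within a library the level of C1R per exon length was 1.06 and 0.603 times that of C1S without IFNγ, and 1.39 and 1.06 times with it.

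SERPING1 (ENSG00000149131, chromosome 11 of GRCh37, 57364860 to 57386644, plus strand) encodes the serpin that binds and inactivates C1r and C1s, and also blocks the contact system proteases factor XII and plasma kallikrein. Each unstimulated library held 4 counts of SERPING1, and the IFNγ libraries held 27 and 19. The duplicates lay close together in both groups, but at so few counts such closeness says little about precision. The groups were separate, but SERPING1 passed the filter only through the IFNγ libraries, so this is no independent support. Its unstimulated levels of 0.39 and 0.56 CPM were near the 0.292 and 0.42 CPM that a count of 0 allows in those libraries. The level was 0.475 ± 0.121 (SD, n = 2) CPM before and 2.61 ± 0.0239 (SD, n = 2) CPM after IFNγ. This rise was 2.46 on the log2 scale (SE 0.463, 95% confidence interval 1.38 to 3.55, adjusted p = 0.0113). As a fold this was 5.51, with an interval of 2.60 to 11.7. The few counts bound the precision, and the adjusted p-value was 0.094 without unstimulated replicate 1 and 0.0602 without IFNγ replicate 1. DESeq2 gave SERPING1 no adjusted p-value with its default filtering and 0.0593 without that filtering. Its exons overlap no other annotated gene.

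Per exon length SERPING1 was the lowest of the 9 genes in all 4 libraries. Its level relative to the summed levels of C1R and C1S was 0.0212 and 0.0337 in the unstimulated libraries and 0.0790 and 0.0859 in the IFNγ libraries. After IFNγ the inhibitor transcript was still at a lower level than those of its target proteases. GCNT3 and PARP9 were among the genes whose profile over the 4 libraries, centred on its mean, lay nearest to that of SERPING1. Their Euclidean distances were 0.114 and 0.16 on the log2 CPM scale with a prior count of 2, and their log2 fold changes were 1.97 and 2.13. With only 4 libraries such nearness mostly reflects a rise of similar size in the same data, and shared control was not tested. At its few unstimulated counts the prior count shrinks the rise of SERPING1 in this profile, while the fold changes are from edgeR.

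C2 provides the protease of the classical pathway enzyme that cleaves C3, and CFB does the same in the alternative pathway. The genes are neighbours in the MHC class III region of chromosome 6 of GRCh37, C2 (ENSG00000166278) from 31865562 to 31913450 and CFB (ENSG00000243649) from 31913427 to 31919863, both on the plus strand. C2 had 77 and 42 counts without IFNγ and 87 and 57 with it, which is 7.498 and 5.88 CPM against 8.46 and 7.78 CPM. The groups of C2 did not overlap, but they were less than 1 CPM apart at the nearest. Its log2 fold change was 0.27 (95% confidence interval -0.29 to 0.83, adjusted p = 0.462).

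CFB was the flattest of the 9 genes. It had 103 and 67 counts without IFNγ and 99 and 70 with it, or 10.03 and 9.39 CPM against 9.63 and 9.55 CPM, so the IFNγ libraries lay between the unstimulated ones. For CFB the log2 fold change was -0.02 (95% confidence interval -0.48 to 0.44, adjusted p = 0.955). A rise of CFB above 1.36-fold or a fall below 0.717-fold lay outside the interval. The sign of this value changed with the scaling. Of the exon bases of CFB 42.8%, and of those of C2 30.0%, overlap other annotated genes, mostly a readthrough gene that spans both and has no row among the counts. How reads in these shared exons were counted is not given in the sources used here, so the levels of C2 and CFB are uncertain.

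C3 (ENSG00000125730, chromosome 19 of GRCh37, 6677715 to 6730573, minus strand) is the central component, whose cleavage product C3b tags surfaces for phagocytes. It was the most abundant of the 9, with 1264 and 841 counts without IFNγ and 1453 and 965 with it. In CPM this was 123 and 118 against 141 and 132, so both IFNγ libraries were slightly higher. On the log2 scale C3 differed by 0.18 (SE 0.112, 95% confidence interval -0.08 to 0.44, adjusted p = 0.294). C3 had the narrowest interval of the 9 genes, and a rise above 1.36-fold lay outside it.

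**Figure D2:**
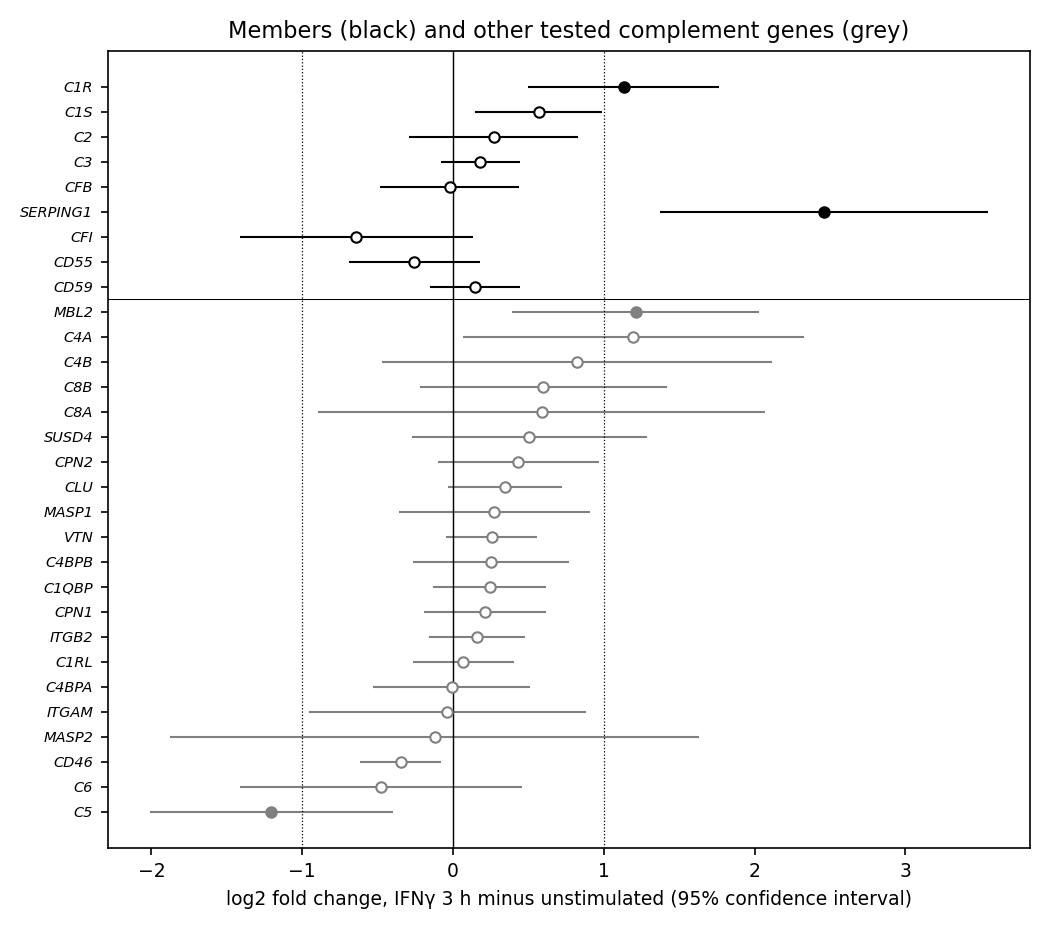
Log2 fold change (IFNγ 3 h minus unstimulated) with its 95% confidence interval for the 9 genes in black and the 21 other tested complement genes in grey, with filled points for called genes and dotted lines at -1 and 1. SERPING1, C1R and MBL2 were called higher and C5 lower, and the interval of C3 ran from -0.08 to 0.44.

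Promoters were examined for letters that are linked to IFNγ signaling, namely the IFNγ-activated site (GAS) and the interferon-response element that IRF factors bind. RefSeq promoters on GRCh38.p14, from 250 bases before to 50 bases after a start, were available for C1R, C2, CFB, CFI, CD55 and CD59, with 11 promoters in all. C1S, C3 and SERPING1 had no entry. The letters TTCNNNGAA, searched on both strands, were in 4 of these 11 promoters, against 7.66% of all 35116 promoters of the same length. These 4 were the only promoter of CFB, 1 of 2 of C1R, and 2 of 4 of CD59 that overlap each other and share the match. The letters GAAA, any 2 bases and GAAA again, on either strand, were in 1 of the 11, that of CFB, against 3.57% of all promoters. The 3 distinct promoters that hold a match are shown with the matched letters in capitals, the first lying at chr6:31945845-31946144 on the plus strand, the second at chr12:7091844-7092143 on the minus strand and the third at chr11:33736430-33736729 on the minus strand.
CFB: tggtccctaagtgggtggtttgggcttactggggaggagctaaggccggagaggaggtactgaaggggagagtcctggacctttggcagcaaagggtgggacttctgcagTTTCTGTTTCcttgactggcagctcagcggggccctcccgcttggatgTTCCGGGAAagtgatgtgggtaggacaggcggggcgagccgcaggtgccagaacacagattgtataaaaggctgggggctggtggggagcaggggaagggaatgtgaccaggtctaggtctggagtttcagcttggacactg
C1R: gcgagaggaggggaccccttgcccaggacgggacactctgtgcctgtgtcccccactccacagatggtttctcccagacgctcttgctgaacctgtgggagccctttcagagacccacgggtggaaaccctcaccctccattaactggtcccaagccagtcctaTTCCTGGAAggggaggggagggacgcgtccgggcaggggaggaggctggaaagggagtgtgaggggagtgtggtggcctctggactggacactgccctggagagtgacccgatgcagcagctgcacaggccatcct
CD59: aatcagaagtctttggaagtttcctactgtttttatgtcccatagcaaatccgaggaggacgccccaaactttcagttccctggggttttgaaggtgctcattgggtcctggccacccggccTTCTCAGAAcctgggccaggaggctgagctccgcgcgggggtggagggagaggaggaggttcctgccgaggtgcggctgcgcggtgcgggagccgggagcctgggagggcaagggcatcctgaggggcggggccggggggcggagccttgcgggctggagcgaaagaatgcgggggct
In the CFB promoter the GAS letters began 92 bases before the start and the other match 140 bases before it, with no overlap between them. The GAS letters began 86 bases before the start in C1R and 128 bases before it in CD59. C1R was called higher in the main test, CFB and CD59 did not pass it, and a match describes letters only, not binding.

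Factor I, encoded by CFI (ENSG00000205403, chromosome 4 of GRCh37, 110652164 to 110723306, minus strand), cuts C3b and C4b once a cofactor has bound them. It had 36 and 34 counts without IFNγ and 26 and 20 with it, or 3.51 and 4.76 CPM against 2.53 and 2.73 CPM. Both IFNγ libraries were thus below both unstimulated ones, the reverse of SERPING1. For CFI the log2 fold change was -0.64 (SE 0.33, 95% confidence interval -1.41 to 0.13, adjusted p = 0.212). With the GC and length trend removed it was -0.36. Relative to C3 per exon length, CFI was 0.0620 and 0.0880 without and 0.0389 and 0.0451 with IFNγ. Other annotated genes overlap 29.4% of its exon bases.

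CD55 and CD59 are both held in the membrane by a glycosylphosphatidylinositol (GPI) anchor. CD55, or decay-accelerating factor, dissociates the enzymes that cleave C3, and CD59 blocks the assembly of the membrane attack complex. CD55 (ENSG00000196352, chromosome 1 of GRCh37, 207494864 to 207560149, plus strand) had 385 and 303 counts without IFNγ and 289 and 286 with it. In CPM these were 37.5 and 42.5 against 28.1 and 39.0, and the groups overlapped because the IFNγ libraries differed. For CD55 the log2 fold change was -0.26 (95% confidence interval -0.69 to 0.18, adjusted p = 0.367). It was 0.15 (adjusted p = 0.676) with the GC and length trend removed, so no direction can be given for CD55.

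CD59 (ENSG00000085063, chromosome 11 of GRCh37, 33724556 to 33758025, minus strand) had 911 and 740 counts without IFNγ and 1129 and 752 with it. Its levels of 88.7 and 104 CPM without and 110 and 103 CPM with IFNγ overlapped. The log2 fold change was 0.15 (95% confidence interval -0.15 to 0.44, adjusted p = 0.459). A rise of CD59 above 1.36-fold lay outside the interval of this main test. With the GC and length trend removed the log2 fold change was 0.34 (adjusted p = 0.138 from edgeR). With the replicate block added it was 0.35 (adjusted p = 0.00964 from edgeR), where only the fold change threshold kept CD59 from a call. The ratio of CD59 to CD55 per exon length was 2.30 and 2.37 in the unstimulated libraries, and 3.79 and 2.55 in the IFNγ libraries, where replicate 1 stood apart.

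The 26 genes with a row on a list of 28 for the synthesis and attachment of GPI anchors were all tested, and 0 were called in either direction by edgeR, against 2.88% higher and 4.40% lower over all tested genes. At an unadjusted p-value under 0.05 edgeR gave 4 of these higher and 3 lower, against 16.6% higher and 18.8% lower over all tested genes. The median log2 fold change of the list was 0.12. The nearest to a call, named after its values were seen, was PIGM, a mannosyltransferase of this pathway, with 174 and 121 counts without and 352 and 237 with IFNγ. Its log2 fold change was 0.97 (adjusted p = 0.00516), just under the fold change threshold. PIGA, a subunit of the enzyme that starts the pathway, also named after its values were seen, went the other way, with 184 and 155 counts without and 137 and 76 with IFNγ and a log2 fold change of -0.73 (adjusted p = 0.0426).

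Levels between genes were compared per kb of merged exon length. In unstimulated cells C3 had 10.4 ± 0.321 and CD59 9.11 ± 1.00 CPM per kb (SD, n = 2), followed by CD55 with 3.90 ± 0.342 and CFB with 1.83 ± 0.0855. C1S (1.33 ± 0.144), C1R (1.09 ± 0.312), C2 (0.936 ± 0.16) and CFI (0.777 ± 0.167) came next, and the library values of each overlapped those of its neighbour in this order. SERPING1 was last with 0.0657 ± 0.0167 CPM per kb. After IFNγ C1R had 2.41 ± 0.369 CPM per kb, and both of its IFNγ libraries were then above those of C1S (1.97 ± 0.0708) and CFB (1.81 ± 0.0104). C1S was also above CFB in both IFNγ libraries, the reverse of their order without IFNγ. The order of the other genes was unchanged, with C3 at 11.8 ± 0.59, CD59 at 10.1 ± 0.483 and CD55 at 3.27 ± 0.753. C2 had 1.14 ± 0.0677, CFI 0.494 ± 0.0266 and SERPING1 0.361 ± 0.00331 CPM per kb after IFNγ. The places of C1R, C1S and CFB depend on the merged exon length used. In CPM, without division by length, C1S was above both C1R and CFB in each of the 4 libraries. Averaged over the 4 libraries, C3 was at the 71.2 percentile of 14518 tested genes, CD59 at 67.4, CD55 at 42.0 and SERPING1 at 2.32.

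**Figure D3:**
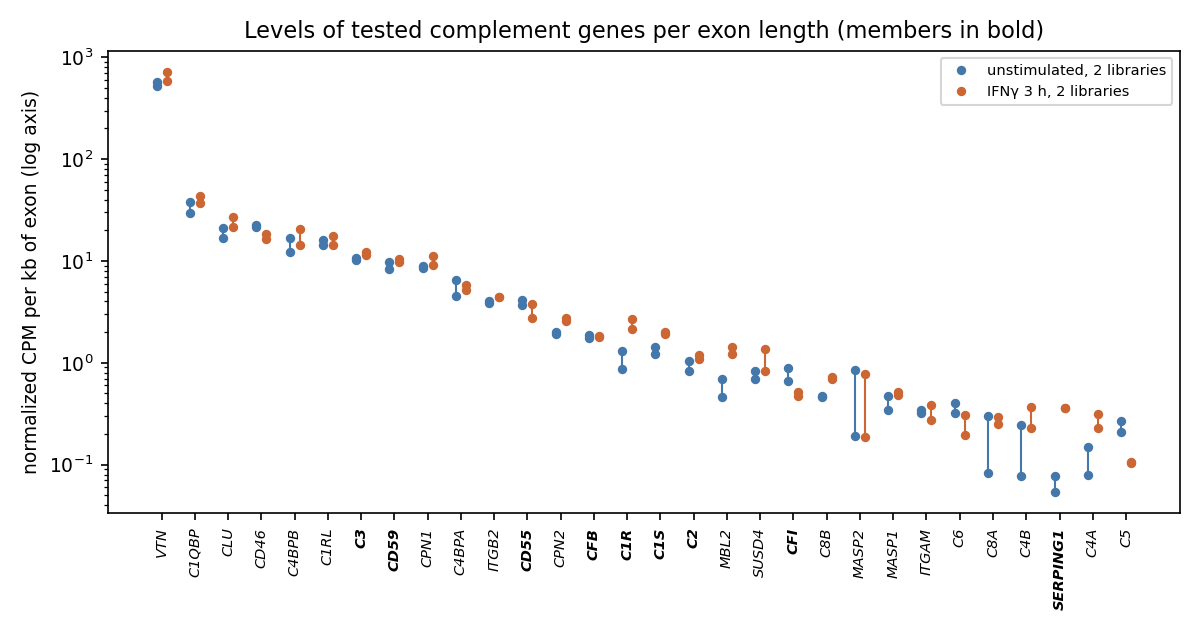
Normalized CPM per kb of exon (log axis) of the 30 tested complement genes in order of their mean, with the 2 libraries of each group joined by a line and the 9 genes in bold. VTN was the highest and C3 and CD59 led the 9 genes, while SERPING1 stood near the low end of the range in both groups.

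Of 49 further complement genes on a list drawn up with the earlier results known, 42 had a row and 21 were tested. Of these 1 was called higher, MBL2, and 1 lower, C5, with a median log2 fold change of 0.25 over the 21. The shares called over all tested genes, 2.88% higher and 4.40% lower, are of similar size. MBL2, a lectin that starts the lectin pathway, had 17 and 18 counts without and 45 and 38 counts with IFNγ. This was 1.21 on the log2 scale (SE 0.35, adjusted p = 0.0491). C5, the component whose cleavage begins the terminal pathway, had 47 and 25 counts without and 18 and 13 with IFNγ, or -1.20 on the log2 scale (SE 0.345, adjusted p = 0.048). Both groups of each gene were separate, but both calls were at the edge of the threshold and neither was made by DESeq2. No gene of this list was called lower when any 1 library was left out, and none was called higher without unstimulated replicate 1 or either IFNγ library.

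The classical pathway component C4 is encoded by the near-identical genes C4A and C4B, between which reads cannot be divided with confidence. C4A had 11 and 4 counts without and 23 and 12 with IFNγ, with a log2 fold change of 1.20 and an adjusted p-value of 0.123 from edgeR. C4B had 18 and 4 counts without and 27 and 12 with IFNγ, with a log2 fold change of 0.82 (adjusted p = 0.332). Both genes reached the filter's level in both IFNγ libraries, but C4A did so in neither unstimulated library and C4B only in replicate 1. Their positive values are thus no independent support, and they also enter the median given above for the other complement genes. C1QB, a chain of C1q, had 0 counts in every library. No row among the counts was matched to C1QA or C1QC, so they could not be tested. A count of 0 allows a level of up to 0.292 to 0.42 CPM in these libraries, counting error only. CFD, the protease that activates factor B, had 3 counts in each unstimulated library and 0 and 1 in the IFNγ libraries, too few to be tested.

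The most abundant of the other complement genes was VTN, whose product vitronectin blocks the terminal complex. It had 548 ± 30.2 CPM per kb without and 655 ± 92.2 CPM per kb with IFNγ (SD, n = 2), a log2 fold change of 0.26 (adjusted p = 0.198). For CLU, which encodes clusterin, a further terminal inhibitor, the difference was 0.35 on the log2 scale (adjusted p = 0.172). CD46, a membrane cofactor for factor I, was not called, with 3413 and 2513 counts without and 2611 and 2082 with IFNγ and a log2 fold change of -0.35 (adjusted p = 0.0714). C1QBP, a binding protein for the globular heads of C1q, had 0.24 (adjusted p = 0.319), and C4BPB, a chain of the C4b-binding protein, had 0.25 (adjusted p = 0.457). Of these 5 genes, C1QBP and C4BPB had overlapping groups.

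Replicate 1 and replicate 2 differed in some complement genes in the same way in both conditions. MASP2, a protease of the lectin pathway, had 45 and 7 counts without and 41 and 7 counts with IFNγ, in each case the larger number in replicate 1. The log2 fold change of MASP2 was -0.12 with a 95% confidence interval of -1.88 to 1.63, the widest of the 30 genes. What separates the replicates is not stated in the labels.

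Of 11 contact system and plasma serpin genes, a list that includes targets and relatives of SERPING1, 8 were tested and 0 were called by edgeR, against 2.88% higher and 4.40% lower over all tested genes. At an unadjusted p-value under 0.05 edgeR gave 2 higher and 1 lower, against 16.6% and 18.8% over all tested genes. The gene with the lowest adjusted p-value was KNG1, which encodes kininogen, the substrate of plasma kallikrein. It had 1852 and 1398 counts without and 1531 and 972 with IFNγ, or -0.42 on the log2 scale (adjusted p = 0.0478), under the fold change threshold in size. For SERPINA1, the relative with the most counts, the log2 change was 0.24 (adjusted p = 0.165), and F12, a target of the C1 inhibitor, had 0.52 (adjusted p = 0.0831). KNG1, SERPINA1 and F12 were named after their values were seen. KLKB1 had 1 count in 1 library, so its change was not detectable at this depth.

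**Figure D4:**
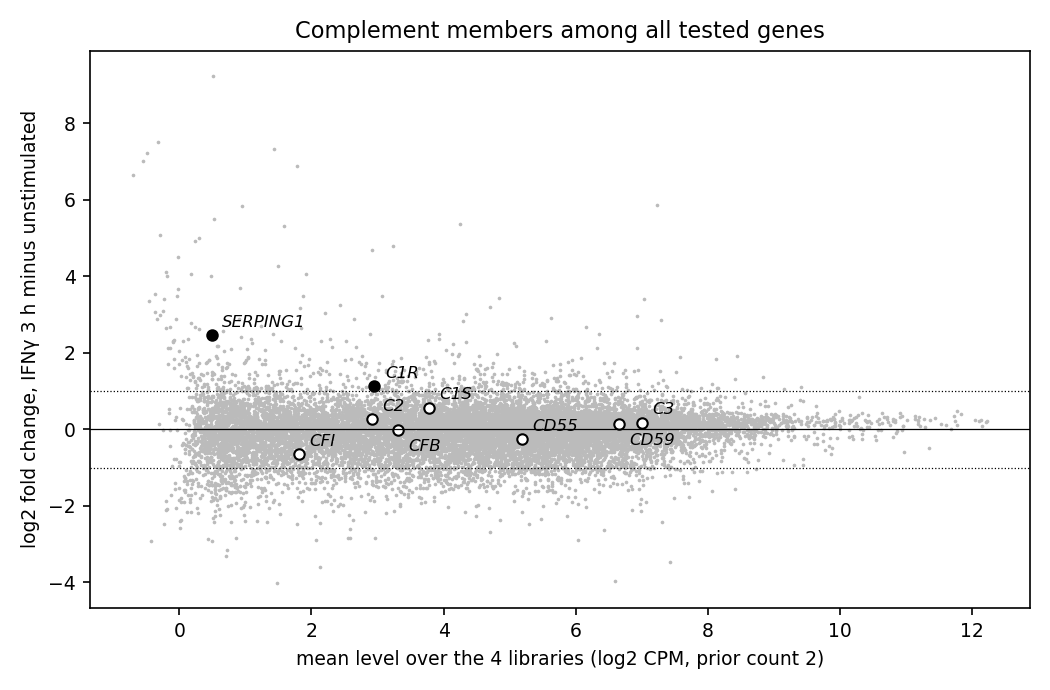
Log2 fold change against the mean level (log2 CPM with a prior count of 2) of the 14820 tested genes in grey, with the 9 genes in black and filled where called. SERPING1, at a log2 fold change of 2.46, lay well above the upper dotted line, C1R lay just past that line at 1, and the other 7 lay between the dotted lines.

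**Figure D5:**
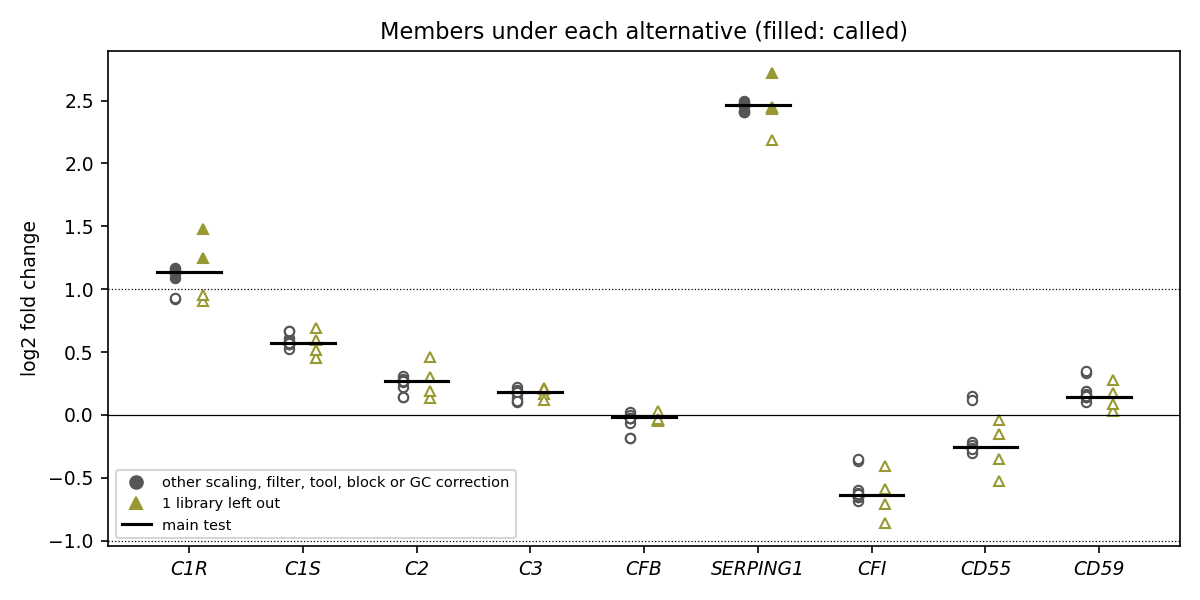
Log2 fold change of the 9 genes under alternative processing (circles), with 1 library left out (triangles) and in the main test (bar), filled where the gene was called. SERPING1 kept a value of at least 2.19 throughout, C1R ran from 0.90 to 1.48 across the line at 1, and the values of CFB and CD55 fell on both sides of 0.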

How the data were processed

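RNA-seq was performed on 4 libraries of Caco-2 cells, 2 unstimulated and 2 treated with IFNγ. The table that the authors deposited holds unnormalized counts for each Ensembl gene and library. Per the submitters' processing notes HISAT 0.5.1 and HTSeq 0.6.1p1 were used, with no role given. The build, annotation and strand setting are not given in the sources used here. Overlapping, antisense and near-identical genes are therefore uncertain. The annotation used here was GENCODE 44 mapped to GRCh37, which gave a symbol to 96.5% of the identifiers.

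Genes were filtered with edgeR's default (minimum count 10, minimum total 15), scaled by TMM and tested in R 4.3.3 by the quasi-likelihood method of edgeR 4.0.16 with condition as the only term. The SE was taken from the fold change and the F statistic, and confidence intervals used the t distribution with the moderated degrees of freedom. The fit was tested on simulated data. The alternatives were DESeq2 1.42.0, other scalings, filters and thresholds, the replicate number as a block, removal of a GC and length trend, and each library left out. Over 14518 tested genes the log2 fold change rose with GC content (Spearman correlation 0.431), so GC-poor genes tended to go lower. The part of this trend in the change of any single gene was not tested. The duplicates differed by more than counting noise, with a chi-square per degree of freedom of 6.76 and 7.75 over genes.

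The members and gene lists were chosen with earlier results of these data known. Named were the 9 genes, called genes of the other complement lists and the 6 most abundant of the rest, called genes of the serpin and GPI lists, marker genes, and the 3 genes nearest in profile, except that a few of these are not reported here. C4A, C4B, C1QB, CFD, MASP2 and KLKB1 were named after their values were seen.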

Additional observations from a re-analysis of the deposited data

How the results depend on the processing

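The 14 alternative fits gave 123 single values for the 9 genes, of which 112 kept their direction and side of the threshold, 7 lost a call and 4 changed sign. These leave out SERPING1 at 10 counts in every library, and SERPING1 and CFI with default DESeq2, which had no adjusted p-value. SERPING1 was called in neither of those settings. The sign changed for CFB with upper quartile scaling (0.0202) and without unstimulated replicate 1 (0.0292, against -0.05 without unstimulated replicate 2). It also changed for CD55 with the GC and length trend removed (0.15) and with that removal plus the replicate block (0.12). Among the 9 genes 2 were called higher in the main test, but 1 with DESeq2 (with or without independent filtering), with at least 10 counts in every library, and with the GC and length trend removed (with or without the block). The number was 0 at an adjusted p under 0.01 and with glmTreat, which tests against a log2 fold change of 1, and 0 to 2 with 1 library left out. SERPING1 was not tested at 10 counts in every library. Of the other complement genes 1 was called higher, but 0 with scaling by library size only, DESeq2, an adjusted p under 0.01 or glmTreat, and 0 to 1 with 1 library left out. In the lower direction 1 was called, but 0 with upper quartile scaling, DESeq2, GC and length removed (with or without the block), an adjusted p under 0.01, glmTreat, or any 1 library left out. For the 9 genes together the median log2 change was 0.222 with upper quartile scaling, 0.138 with library size only, 0.15 with GC and length removed, 0.142 with the block added, and 0.118 to 0.211 with 1 library left out. For the other complement genes the same medians were 0.29, 0.209, 0.207, 0.209, and 0.181 to 0.335. Over all genes 427 were higher and 652 lower. These were 1337 and 1626 with no fold change threshold and 67 and 46 with glmTreat, while 382 were lower at an adjusted p under 0.01 and 326 with GC and length removed. With 1 library left out 339 to 455 were higher and 554 to 1112 lower, the last without IFNγ replicate 1. The causes were not tested.

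The replicate numbers are not explained in the labels, and the deviations of same-numbered libraries correlated at 0.415 over 14820 genes. With the replicate block 492 genes were called higher and 896 lower, and C1R (1.14, adjusted p = 0.00457 from edgeR) and SERPING1 (2.47, adjusted p = 0.0055) kept their calls. The block changed no other call among the 9 genes. With a library left out, the lone library is assumed to vary like the other group. The low counts of SERPING1, CFI, C2 and C1R limit their precision, and counting error alone does not cover the differences between cultures.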
